A study of Homo sapiens with 4 samples.

Results

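MALAT1, NEAT1, RMRP and the 28S ribosomal RNA genes RNA28SN1 and RNA28SN2 were examined in the peak list of a YTHDF2 RNA immunoprecipitation. The summit of a peak is the position that the list marks within it. A peak belonged to a listed gene when its summit lay inside the gene's hg38 span, on a chromosome or a random or unplaced contig. Of the 14858 peaks in the list, 16 met this rule. MALAT1 held 5 of them, RMRP 1, RNA28SN2 7 and RNA28SN1 3, and NEAT1 held 0. The 28S counts name the chromosome 21 copies as RefSeq does and the contig copies as the list does. Since the 28S genes are copies of each other, the 16 peaks describe 3 different RNAs.

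The labels gave 4 libraries from HCCLM3, a metastatic liver cancer line. The cells are given as WT, which is read here as unmodified. There were 2 libraries of RNA pulled down with YTHDF2 (RIP) and 2 of the input RNA, and none of a control antibody. The files held 1 value per peak and none per library, so no replicate spread, no library depth and no test between groups could be given. Intervals below are exact 95% intervals of RIP fragments over scaled input fragments at 1 summit, and they cover counting error only, since reads copied by PCR cannot be told from separate molecules here.

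These RNAs share abundance and a lack of coding function, and they differ in place and role. MALAT1 is a long RNA retained in nuclear speckles, the domains where splicing factors gather, and it carries N6-methyladenosine (m6A), the mark that YTHDF2 reads. NEAT1, its neighbour on the same chromosome, is the scaffold of the nuclear bodies called paraspeckles. RMRP is the RNA of RNase MRP, a ribonucleoprotein that cleaves the ribosomal RNA precursor in the nucleolus. The 28S RNA is the main RNA of the large ribosomal subunit and is cut from a precursor that also holds the 18S and 5.8S RNAs. YTHDF2 itself is mainly cytoplasmic.

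The sequences available here were those around the starts of MALAT1, and both are shown because its peaks lie downstream of them. They are RefSeq sequences of GRCh38.p14, plus strand, each with 250 bases before an annotated start and 50 after it. The first spans chr11:65497488-65497787, with the letters GGACT, a common core of m6A sites, in capitals. The second spans chr11:65498795-65499094, with the TATA-box letters TATAAA in capitals.

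MALAT1 first start: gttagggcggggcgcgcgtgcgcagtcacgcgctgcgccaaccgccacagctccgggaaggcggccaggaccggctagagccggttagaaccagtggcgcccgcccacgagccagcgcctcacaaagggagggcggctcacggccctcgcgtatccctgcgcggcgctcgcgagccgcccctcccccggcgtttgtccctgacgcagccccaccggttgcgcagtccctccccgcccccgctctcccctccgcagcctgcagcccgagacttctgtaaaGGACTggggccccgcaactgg
MALAT1 second start: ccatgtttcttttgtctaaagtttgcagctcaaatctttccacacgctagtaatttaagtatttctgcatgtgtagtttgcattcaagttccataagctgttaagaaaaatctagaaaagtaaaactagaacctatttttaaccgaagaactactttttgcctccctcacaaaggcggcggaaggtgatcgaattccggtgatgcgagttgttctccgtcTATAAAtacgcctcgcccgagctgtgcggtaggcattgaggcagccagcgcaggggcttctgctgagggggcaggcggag

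On the strand shown, GGACT began at base 30, counting the first start as base 1. GGACT was found on either strand in 44.2% of 35116 such windows of all genes, and TATAAA in 11.5%. Neither window held a peak. The first MALAT1 peak began 199 bases after the end of the second window and 1506 bases after the end of the first.

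MALAT1 was covered by 5 peaks of low fold. Its span on chromosome 11 runs from 65497738 to 65506516, and the peaks covered 4556 of its 8779 bases (51.9%). Each fold is the authors' value for how far RIP exceeded the background, which here was the scaled input. A q of at most 0.01, or a −log10 q of at least 2, counted as passing. How many RIP fragments, and how many input fragments before scaling, lay under a summit was recovered from its fold and p-value.

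The peak nearest the 5′ end of MALAT1 (65499293 to 65501026) was the widest, with 1734 bases. Its summit rested on 285 RIP and 268 input fragments, which gave 1.56-fold enrichment (−log10 q 8.72). The next peak (65501558 to 65502016) had 173 RIP and 185.2 input fragments, 1.37-fold enrichment and a −log10 q of 1.79. It was the 1 peak of MALAT1, and of all 16, that did not pass. At this summit, and at 1 of the 28S summits below (258.9), the background did not correspond to a whole number of input fragments, so the value is the background in units of 1 fragment.

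The middle peak of MALAT1 (65502176 to 65502512) had the highest fold of the transcript, 1.81, over 179 RIP and 145 input fragments. The fourth (65503396 to 65504071) had 240 RIP and 205 input fragments, a fold of 1.72 and the highest −log10 q of the gene, 10.8. The last (65504700 to 65506049) had 194 RIP and 201 input fragments, 1.42-fold enrichment and a −log10 q of 2.92. Its end lay 68 bases short of MASCRNA (65506117 to 65506174), the tRNA-like RNA that is cut from the 3′ end of MALAT1.

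The intervals of these 5 summits overlapped one another, from 1.11 to 1.70 at the second to 1.45 to 2.28 at the third, so counting error alone does not separate the high from the low positions of MALAT1. All 5 summits also lay inside TALAM1, the antisense RNA of the locus (65499312 to 65507432), and the list gives no strand for a peak. The list attached MALAT1 to 2 of the peaks and MASCRNA, whose start was the nearer, to 3.

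**Figure D1:**
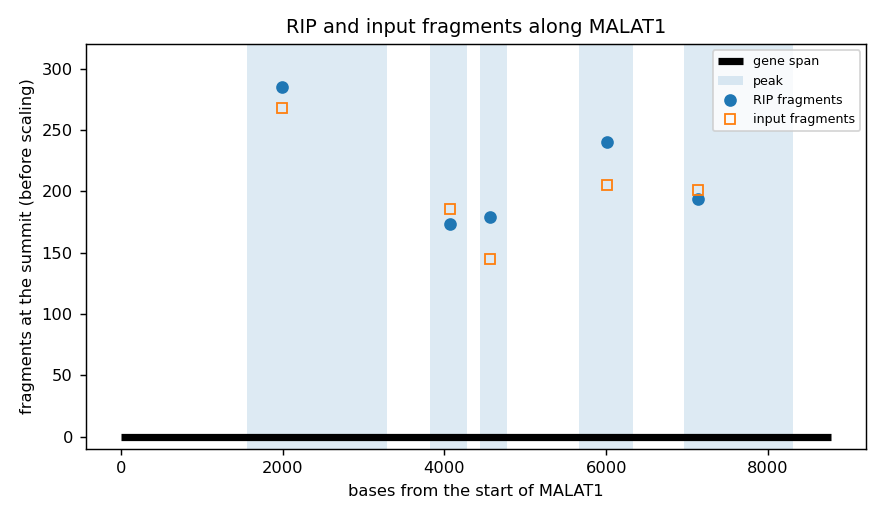
RIP fragments (filled circles) and input fragments before scaling (open squares) at the 5 MALAT1 summits, on the vertical axis, against the distance in bases from the start of the gene. Shaded bands are the peaks and the black bar is the gene span. RIP exceeded input at 3 summits and lay below it at the fifth. At the second, RIP lay below a background that was not a whole number of input fragments.

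NEAT1 had no peak. Its span of 22743 bases (chromosome 11, 65422798 to 65445540) held 0 summits and no part of a peak. The nearest summit on 1 side lay 9513 bases away in the 3′ UTR of FRMD8, a gene next to NEAT1, with a fold of 2.05 over 40 RIP and 28 input fragments. The list gives this peak the name NEAT1, because the start of NEAT1 was the nearest. On the other side the nearest summit lay 10619 bases away in the pseudogene FAUP4, with 1.36-fold enrichment and a −log10 q of 0. A list of peaks gives no level for a gene without one, so nothing follows here on how much NEAT1 RNA the cells or the pulldown contained.

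RMRP had the highest fold of the 16 peaks. Its peak on chromosome 9 (35657544 to 35657860) had 229 RIP fragments over 110 input fragments, 3.04-fold enrichment and a −log10 q of 40.9, which ranked 77 in the whole list. The interval, 2.43 to 3.88, lay above those of all 5 MALAT1 peaks and of 9 of the 10 28S peaks. It overlapped the interval of the remaining 28S peak, 1.84 to 2.65. The peak sat at the 3′ end of the RNA. RMRP is read from the minus strand (35657750 to 35658019), and the summit was 1 base inside the end of this span. Of the peak's 317 bases, 111 lay inside RMRP and 206 beyond its 3′ end. The rule took this peak by that 1 base, and any overlap with the span would take it as well.

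RPPH1, the RNA of RNase P and a relative of RMRP in structure and protein partners, resembled it. Its peak on chromosome 14 (20342861 to 20343211) had 309 RIP over 165 input fragments and a fold of 2.74, with an interval of 2.27 to 3.35 that overlapped that of RMRP. In the list of 22 other small structured RNAs, 4 had a peak and 3 passed. Besides RPPH1 these were RN7SK, which holds the elongation factor P-TEFb inactive, with a fold of 2.36 (280 RIP, 174 input), and RN7SL2, an RNA of the signal recognition particle, with a fold of 2.32 (282 RIP, 178 input). RN7SL2 has a near-identical copy, RN7SL1, so its reads are uncertain. The spliceosomal RNU4-2 had a fold of 1.66 over 66 RIP fragments and did not pass. Of all 8926 genes with a summit inside them, 50.7% had a passing peak.

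Among the proteins of RNase MRP and RNase P, 5 of 11 genes had a peak and all 5 passed, with a median best fold of 2.15 against 2.61 over all genes with a summit. POP4 led with a fold of 2.87 over 35 RIP fragments, followed by RPP38 (2.38, 37 RIP fragments) and POP7 (2.15, 122 RIP fragments).

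**Figure D2:**
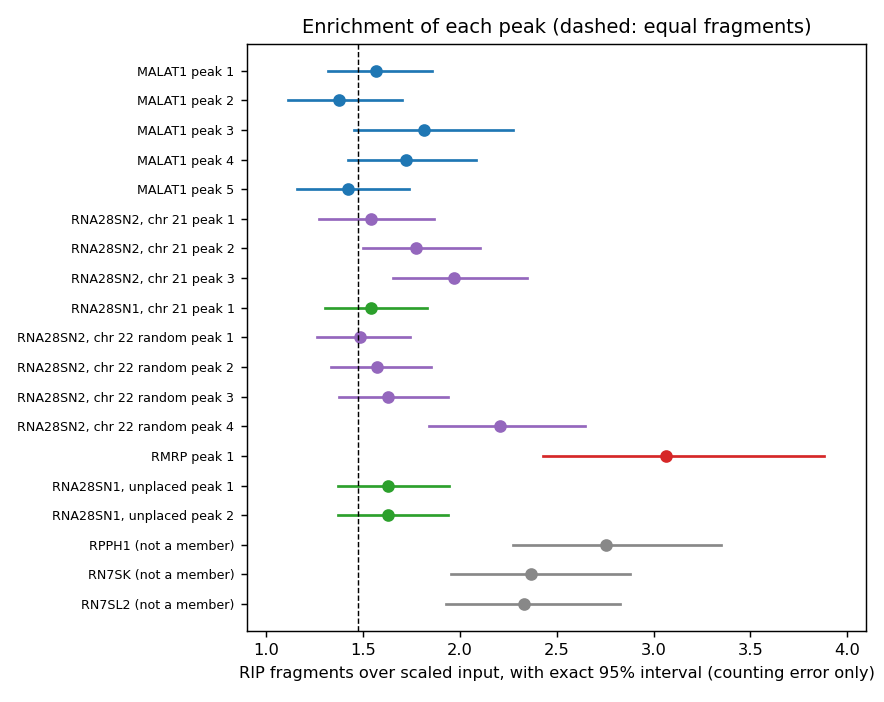
Ratio of RIP fragments to scaled input fragments at each of the 16 summits and at 3 other structured RNAs. Bars are exact 95% intervals for counting error, approximate at the 2 summits without a whole number of input fragments. The dashed line marks 1.47, the ratio at equal numbers of fragments before scaling. RMRP lies highest at 3.06, and 12 of the 16 intervals cross the line. All 16 lie above the ratio at which RIP equals the scaled input, which the calling of peaks against this background largely fixed in advance.

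The 28S RNA had 10 peaks on 4 gene copies, and all 10 passed. Across the whole list 37.3% of peaks passed, while among the 854 peaks with 150 or more RIP fragments, a minimum all 16 met, 95.2% did. The 15 of 16 that passed are therefore near the share for peaks of such depth. The copies are near-identical, so reads from 1 copy cannot be told from those of another, and the peaks of different copies are not replicates. On the copy of RNA28SN2 on chromosome 21 (8213888 to 8218941) 3 peaks lay at 8214684 to 8215249, 8216880 to 8217522 and 8218690 to 8219088. Their folds were 1.54, 1.77 and 1.96 over 225, 304 and 308 RIP fragments and 215, 252 and 230 input fragments.

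The second chromosome 21 copy (8441146 to 8446211) is RNA28SN1 in RefSeq and carries the name of RNA28SN2 in the list. It had 1 peak, at 8442006 to 8442458, with a fold of 1.54 over 282 RIP and 269 input fragments. A random contig of chromosome 22 held a copy listed as RNA28SN2 (130204 to 135280 of the contig), whose span matches that of RNA28SN4 in RefSeq. Its 4 peaks had folds of 1.48, 1.57, 1.63 and 2.20, in order along the gene. The RIP fragments were almost equal at these summits, 306, 305, 287 and 306, while the input fragments were 304, 286, 258.9 and 204. An unplaced contig held the copy listed as RNA28SN1 (113348 to 118417 of the contig), which matches RNA28SN5. It had 2 peaks with folds of 1.63 and 1.62, over 277 and 280 RIP fragments and 250 and 253 input fragments.

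Counted from the start of each 28S gene, the summits fell at the same few places in different copies. In this count RNA28SN3, a further copy on chromosome 21 outside the gene list, is included with its 2 peaks. Summits lay 875 to 1003 bases from the start in 4 of 5 copies, with folds of 1.48 to 1.63. A second place, at 3223 to 3377 bases, was shared by 4 copies, with folds of 1.57 to 1.77. The place nearest the 3′ end, at 4913 to 4963 bases, was shared by 3 copies and had the highest folds of these 5 copies, 1.96 to 2.20. A summit at 4350 bases occurred in 1 copy, with a fold of 1.63. The 3′ place had 173 to 230 input fragments, against 215 to 304 at the first place and 252 to 286 at the second. Its RIP fragments, 259 to 308, overlapped those of the first place (225 to 306) and of the second (280 to 305). In these 5 copies the folds of the 3′ place did not overlap those of the others, but the copies are not replicates. An unannotated unit on the chromosome 22 contig goes against this order, with a fold of 2.23 over 144 RIP and 94 input fragments at the second place. On the chromosome 22 contig the interval at the 3′ summit, 1.84 to 2.65, lay above that at the first summit, 1.26 to 1.74. On the chromosome 21 copy of RNA28SN2 the interval at the 3′ summit, 1.66 to 2.35, overlapped that at the first, 1.27 to 1.87.

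**Figure D3:**
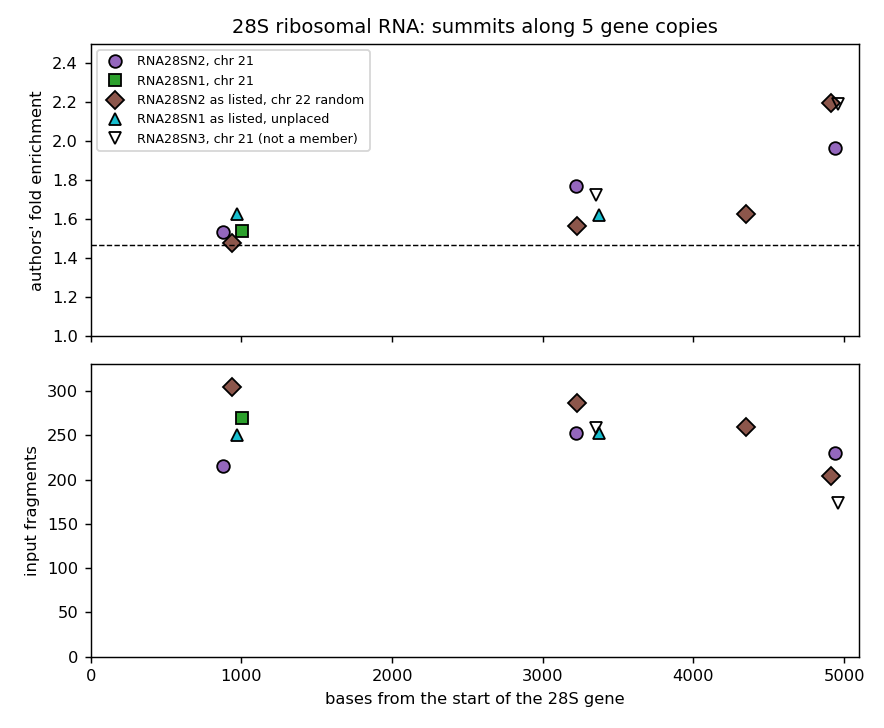
The authors' fold (top) and input fragments before scaling (bottom) of the 28S summits against the distance in bases from the start of the gene, with 1 symbol per gene copy and RNA28SN3 as open triangles. Summits of different copies gather at 875 to 1003, 3223 to 3377 and 4913 to 4963 bases, and the last place combines the highest folds with mostly lower input.

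The rest of the ribosomal RNA held few summits. RNA18SN2, a copy of the 18S RNA of the small subunit, had 1 peak (chromosome 21, 8211112 to 8211494) with a fold of 1.69 over 238 RIP and 207 input fragments, and the other 18S copies and all 5.8S copies in the table held none. The mitochondrial small-subunit RNA, RNR1 in the table, held the summit of a peak with a fold of 1.62 over 281 RIP fragments. This peak was wide, from 840 to 4266 of the mitochondrial chromosome. Genes were counted by summit only, so other genes under it were not counted. Of 39 listed ribosomal RNA genes, counted on main chromosomes only, 8 had a passing peak, among them the precursors RNA45SN1, RNA45SN2 and RNA45SN3, which contain the 28S genes and share their peaks. Among these the highest fold was 2.19, in the peak that RNA28SN3 and RNA45SN3 share.

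These peaks stood at the deep end of the list and at its low end by fold. RIP fragments at the 16 summits ran from 173 to 308 with a median of 281, against a median of 12 over all peaks and a highest value of 324. Only 16 peaks in the list had 300 or more RIP fragments, and 5 of them were among these 28S peaks; RNA28SN3 held 1 more, with 303. The highest input, 304 fragments, was that of the first 28S peak on the chromosome 22 contig. The folds had a median of 1.63 against 2.41 for all peaks and 2.03 for the peaks with 150 or more RIP fragments. All except RMRP were below the median of all peaks, and 14 of 16 were below the median of the deep peaks.

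The scale of these folds depends on how input was set against RIP. An input fragment counted as 0.68 in the background, so a summit with equal numbers of both had a fold of 1.47. The interval held 1.47 at 12 of the 16 summits, including all 5 of MALAT1, and excluded it at RMRP and at 3 of RNA28SN2. At all 16 summits the interval lay above the ratio at which RIP equals the scaled input. Peaks enter the list by exceeding this same background, so that outcome was largely fixed in advance. The lowest limit was 1.11, at the second MALAT1 peak. There, and at the 28S summit with 258.9, the interval is approximate, since the background was not a whole number of input fragments. The value of 1.47 marks equal numbers before scaling and is not the ratio at which RIP equals the scaled input. RIP fragments were fewer than input fragments at the last MALAT1 summit. At the second, 173 RIP fragments lay below a background of 185.2 in input-fragment units, which was not a whole number of input fragments. RIP and input fragments at the deepest summits both ended near 300. The part of this in the low folds of the 28S peaks, and in their intervals beside that of RMRP, was not tested.

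**Figure D4:**
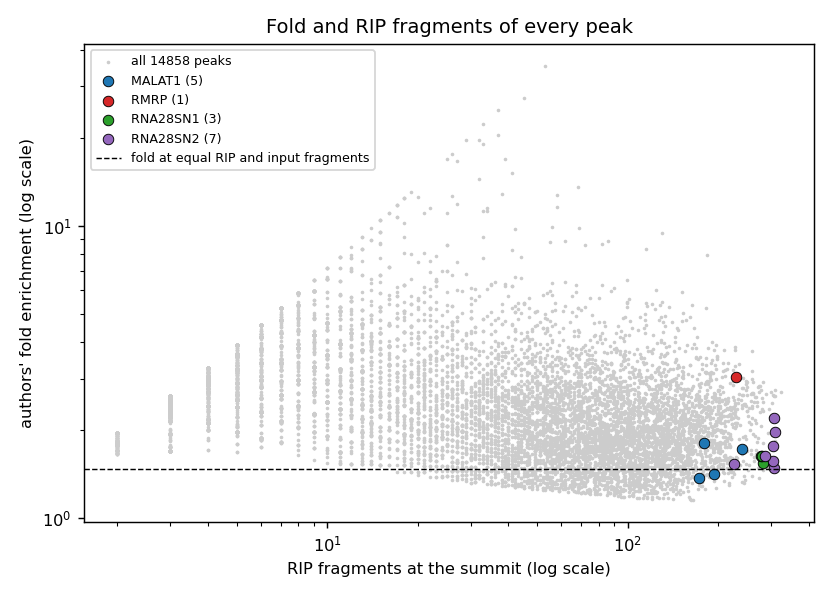
The authors' fold against RIP fragments at the summit for all 14858 peaks (grey) on log axes, with the 16 member peaks coloured by gene. The dashed line marks the fold of 1.47 at equal fragments before scaling. All coloured points lie at 173 or more fragments, and the highest of them is RMRP at 3.04.

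The other long noncoding RNAs compared included both weaker and stronger cases. Of 15 listed, 11 had a peak and 6 passed, with a median best fold of 2.92. Over all genes with a summit 50.7% had a passing peak, and the median best fold was 2.61. The median of 2.92 includes peaks that did not pass, some over few RIP fragments, down to 3 at KCNQ1OT1. PVT1, a long RNA beside MYC, had 10 peaks, of which 1 passed, with a fold of 4.76 over 7 RIP fragments and 1 input fragment. Its interval, 1.32 to 464, overlapped those of the MALAT1 peaks. The snoRNA hosts SNHG1 (3.41-fold, 47 RIP fragments) and GAS5 (3.32-fold, 43 RIP fragments) followed. NORAD, which binds Pumilio proteins and was named after its values were seen, had the most passing peaks of this list. There were 3, the best with a fold of 1.59 over 188 RIP and 173 input fragments. Among genes with a span of at most 25000 bases, the most passing peaks lay in EIF4G2, PABPC1 and SF1, with 6 each against 4 for MALAT1. Their folds reached 2.76, 2.78 and 2.83. A further 16 such genes had 4 passing peaks, like MALAT1. The highest folds of these genes, named after their values were seen, began at 1.83 in ALDOA, a glycolytic enzyme whose peaks LOC112694756 shares, and had a median of 2.47. ARPP19 reached 1.99, while the highest fold of MALAT1 was 1.81.

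The mRNAs of proteins that work with these RNAs were read from the same list. Of 15 paraspeckle proteins, partners of NEAT1, 11 had a peak and 8 passed, with a median best fold of 2.40. SMARCA4 had a 3′ UTR peak of 3.22-fold, and SFPQ, which paraspeckles need, an exon peak of 3.17-fold over 181 RIP fragments. Of 10 nuclear speckle proteins, which share their domain with MALAT1, 7 had a peak and 6 passed, with a median of 1.81. The splicing factors SRSF2 (3.23-fold) and SRSF1 (2.09-fold) and the scaffold SON (1.81-fold) led the passing peaks. Of 21 genes for the synthesis and processing of ribosomal RNA, 13 had a peak and 11 passed, with a median of 2.74. The methyltransferase FBL led with 4.99-fold over 114 RIP fragments, while POLR1C (4.36-fold over 7) and UTP20 (4.17-fold over 6) rested on few. Over all genes with a summit the share with a passing peak was 50.7% and the median best fold 2.61.

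The label of a liver cell line could not be checked closely from peaks. Of 8 hepatocyte markers 1, APOB, had a peak, and it did not pass. Of 6 markers of blood, vessel and stromal cells 4 had a peak, and HBB passed with 5.87-fold over 8 RIP fragments. Its background was 0.78 input fragments, and its approximate interval ran from 1.71 to 1579. Over all genes with a summit 50.7% had a passing peak, and the share of all genes that held a peak was not counted here.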

How the data were processed

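Groups came from the labels. HISAT2, MACS2 and hg38 are named in the submitters' processing notes; their versions and options, and the way libraries were combined, were not stated in the labels or headers. Per the file headers, the deposited list gives each peak's width and summit offset, the authors' fold enrichment (a ratio), −log10 p, −log10 q and a score, which was not used. Nothing says whether replicates were separate cultures.

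Fragments were recovered by solving fold = (k + 1) / (background + 1) and the Poisson p for a whole k (scipy 1.17.1), which met every −log10 p within 0.000189 and was correct in 100% of 2000 simulated peaks. The simulated peaks were built with the same formula, so they check the solving and not how the deposited values were made. A background of 0.68 was taken as 1 input fragment. Input came out whole within 0.05 fragments at 14 of 16 summits and at 60.0% of all peaks. Intervals are Clopper-Pearson.

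Spans came from the RefSeq table (GRCh38.p14) and the list. Named genes were the members, up to 3 leading genes per list and the 3 genes most like MALAT1. An item that this rule takes is not reported here. Members and lists were chosen with earlier results of these data known. No sequence of RMRP, NEAT1 or the 28S genes was used here.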

Additional observations from a re-analysis of the deposited data

How the results depend on the processing

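The count of passing peaks, 15 of 16, was 13 of 15 with the gene as deposited and 15 of 16 with any overlap. Of the same 16 peaks, 16 passed at a q of 0.05 or less and 14 at a −log10 q of 5 or more. The count was 9 of 10 on main chromosomes only, 9 of 10 with RefSeq spans only and 5 of 6 without the 28S peaks. The last pair of settings was chosen after seeing the data. The median fold was 1.63 and lay between 1.62 and 2.003 in every setting, the highest with the best peak of each gene. Without the added 1 the best folds of MALAT1, RMRP, RNA28SN1 and RNA28SN2 were 1.82, 3.06, 1.63 and 2.21. No paired analysis was possible because the list holds no value per library, and for the same reason no replicate could be left out. Depth is unknown per library.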

Other observations

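The random contig of chromosome 22 held a second ribosomal RNA unit, for which no 28S gene was among the spans used. The list placed 2 of its peaks by their distance from a 5.8S gene that starts at 173956 of the contig. In the 5 annotated units the 28S gene begins 1317 to 1327 bases after the start of the 5.8S gene. Counted with these offsets, the summit of the peak at 176162 to 176559 lay 1059 to 1069 bases into the 28S sequence, and that of the peak at 177818 to 178862 lay 3288 to 3298 bases into it. The second lies within the place of 3223 to 3377 bases shared by the annotated copies, and the first lies beyond the 875 to 1003 bases of the other. The first peak had a fold of 1.59 over 127 RIP and 117 input fragments. The second had a fold of 2.23 over 144 RIP and 94 input fragments, above the 1.57 to 1.77 of the annotated copies at that place and at lower fragment numbers in both RIP and input. With it, the folds at the second place overlap those of 1.96 to 2.20 at the 3′ place.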
